A study of Mus musculus with 8 samples.

Results

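Of 12194 autosomal gene-end windows that could be measured in nephron progenitor cells of the mouse embryo, 382 (3.13%) had an intermediate DNA methylation level, from 20% to under 80%. A gene-end window is a stretch of 1500 bp, with 1000 bp outside and 500 bp inside a protein-coding or long non-coding RNA (lncRNA) gene, at the end of the gene where more CpGs were seen. A window counted as measured when at least 3 of its CpGs had at least 10 reads in all 8 libraries. The level that placed a window in the intermediate range was the mean of its levels in the 4 unrestricted libraries, so these levels describe the choice and are not a result. Another 11552 windows (94.7%) lay below 20% and 260 (2.13%) at 80% or above. The 382 windows formed 351 sets when overlapping windows were joined, and they held 2176 CpGs.

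The cells were GFP-positive nephron progenitors sorted from embryonic kidneys at E17.5. All embryos of both groups carried 1 copy of the Tg(Six2-EGFP/cre) transgene, labelled Six2 Cre+/tg, in which the Six2 promoter drives a fusion of GFP and Cre, on the outbred CD1 background. Their mothers were wild-type CD1 females aged 8 to 10 weeks. The 4 restricted libraries came from pregnancies in which the dam received 70% of the average daily food intake, and the 4 unrestricted libraries from dams with no food restriction. The labels do not tie libraries to litters or say how many embryos each holds, so p-values measure the spread between these libraries. Methylation was read by reduced representation bisulfite sequencing, which samples CpG-rich restriction fragments and reports, at each CpG, the percent of reads that kept a methylated cytosine.

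Most mammalian promoters rich in CpGs are free of methylation, while CpGs elsewhere are mostly methylated, so a stretch at an intermediate level can arise in several ways. At an imprinted gene 1 parental copy carries methylation and the other does not, a mark that is set in the egg or sperm and kept in all cells of the body, and the level is then alike at every CpG. At the edge of an unmethylated island the level climbs from one CpG to the next, and a window across that edge averages both sides. A stretch can also be methylated in some cells and not in others, or on some CpGs and not on their neighbours.

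Library depth, as coverage summed over all cytosines of CpGs, ranged from 16045992 to 37305007, and a read over several CpGs counts more than once in it. A median CpG shared by all libraries had 20 to 44 reads. An intermediate window had 30 to 9504 CpG reads in a library, with a median of 135. Reads of restricted libraries 1 and 2 fell more on unmethylated CpGs, since their read-weighted mean level lay 2.24 and 3.28 points under the plain mean over CpGs, against -0.575 to 0.817 points in the other 6 libraries. Libraries numbered 1 and 2 in either group also had more mitochondrial reads called methylated (0.0479 to 0.0854%) than those numbered 3 and 4 (0.0221 to 0.0253%). The labels name no batch for this split, and diet differences below are therefore also given within each set of 4 libraries. Windows of 13 of 29 marker genes for the progenitors and for other kidney cells were measured, none of them intermediate, at 0 to 4.61%. These levels are low for every cell type and do not test the purity of the sort.

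Sequence upstream of 4 gene starts shows what was read in windows of even level, at the imprinted genes Mcts2, Plagl1 and Zrsr1, and in a window of graded level, at Gmpr. Each is the stretch of 250 bases before the RefSeq start in GRCm38.p6, plus strand, with measured CpGs in capitals. They lie at chr2:152686898-152687147, chr10:13090582-13090831, chr11:22971755-22972004 and chr13:45507194-45507443.
Mcts2: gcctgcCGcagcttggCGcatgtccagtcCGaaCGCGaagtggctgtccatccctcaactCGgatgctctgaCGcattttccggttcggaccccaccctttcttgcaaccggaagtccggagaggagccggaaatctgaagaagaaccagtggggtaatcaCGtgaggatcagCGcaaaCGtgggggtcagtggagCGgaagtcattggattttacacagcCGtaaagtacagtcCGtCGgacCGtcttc
Plagl1: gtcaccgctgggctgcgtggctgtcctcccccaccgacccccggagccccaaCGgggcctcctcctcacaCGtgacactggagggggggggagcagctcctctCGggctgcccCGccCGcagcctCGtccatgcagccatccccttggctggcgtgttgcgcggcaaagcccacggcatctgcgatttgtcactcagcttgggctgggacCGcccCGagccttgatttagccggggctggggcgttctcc
Zrsr1: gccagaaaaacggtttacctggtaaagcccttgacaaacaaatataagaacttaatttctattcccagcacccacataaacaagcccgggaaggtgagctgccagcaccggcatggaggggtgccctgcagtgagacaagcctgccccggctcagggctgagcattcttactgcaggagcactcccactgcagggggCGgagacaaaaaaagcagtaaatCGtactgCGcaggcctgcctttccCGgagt
Gmpr: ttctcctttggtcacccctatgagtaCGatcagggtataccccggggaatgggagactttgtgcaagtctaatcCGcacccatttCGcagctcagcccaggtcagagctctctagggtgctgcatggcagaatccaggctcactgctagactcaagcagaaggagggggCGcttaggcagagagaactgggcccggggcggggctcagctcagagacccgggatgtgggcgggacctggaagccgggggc
In Mcts2 15 of the 20 CpGs of the stretch were measured, and their unrestricted means lay between 33.5 and 41.7%. The 8 measured CpGs of Plagl1 lay between 36.2 and 40.0%. In Zrsr1, 3 CpGs lay between 39.8 and 43.6%. The fourth, 6 bases before the start, had no methylated read in any library (0 of 177 reads, up to 1.69% by counting alone). It lies in the letters CCGG of the stretch above, and whether a restriction site affected its reads was not tested. In Gmpr the levels fell toward the start, with 40.6, 11.9, 16.2 and 0% at 224, 176, 165 and 81 bases before it.

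Intermediate windows were shorter in measured sequence than unmethylated ones and held a larger share of lncRNA ends, shares that are given as descriptions with no test. Their measured CpGs, a median of 5, spanned a median of 108 bp, against 314 bp in windows below 20%. Of the 382, 173 (45.3%) were ends of lncRNA genes, against 16.5% of windows below 20% and 45.8% of those from 80%. Where the strand of the gene was known, 206 of 297 windows (69.4%) lay at the gene start, against 95% of low and 61.5% of high windows. The tables used hold no exons, so exonic or intronic position was not analysed here. In the promoter sequences, 300 bases from 250 before to 50 after the RefSeq start, the ratio of observed to expected CpGs had a median of 0.380 for 190 intermediate windows, 0.801 for 8169 low windows and 0.351 for 108 high ones. The 371 measured CpGs that fell in these 190 promoters all lay on a CG of the sequence.

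No gene of the kidney lists was in the intermediate range. None of the 18 measured windows of the nephron progenitor list was intermediate, nor any of 19 for early nephron differentiation, 9 for the ureteric bud, 7 for stroma, 10 for podocytes and 33 for Hox genes. The same held for the few measured windows of tubule (3), endothelium (5) and blood (4) genes. Genes of nutrient and insulin sensing (28 windows) and of one-carbon metabolism (17 windows), which supplies methyl groups, were all below 20%. Of 11 windows of the DNA methylation machinery, 9 were below 20% and 2 at 80% or above. Against 3.13% of all measured windows, 10 of 32 imprinted genes, 3 of 20 clustered protocadherins and 3 of 5 olfactory or vomeronasal receptors were intermediate. Only 5 of 1458 receptor genes had a measured window, and the 3 intermediate ones had 4 CpGs each. Of 215 Zfp zinc finger genes 5 were intermediate (2.33%), a share near that of all windows, and of 11 germline genes a single one was. Another 8 of the 11 germline windows were at 80% or above.

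Among the 148 intermediate windows with at least 6 CpGs, 34 had an even level, 22 crossed a steep border and 92 fitted neither pattern. A window was called uniform when its CpG levels, averaged over the unrestricted libraries, had an SD of at most 15 points and at least 80% of them lay from 20 to 80%. It was called a border window when its ordered CpGs could be split, with at least 2 on each side, into parts whose means differed by at least 50 points. The restricted libraries took no part in these choices. In them 24 of the 34 uniform windows were again uniform and the other 10 mixed, and 17 of the 22 border windows were again border windows. The remaining 234 windows had 3 to 5 CpGs and were given no shape. Both counts rested on depth and limits, since a minimum of 20 reads per CpG left 10 uniform windows and 1 border window, and a step of 60 points with an SD of 10 gave 18 and 13.

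By these definitions most CpGs of uniform windows lay from 20 to 80% (96.0% of 297), while in border windows 45.3% of 287 CpGs lay below 20% and 24% above 80%, which describes the classes and is not a result. The smallest spreads were at imprinted genes and lay under the spread that independent counting of reads would give. In Airn, the lncRNA that silences the paternal Igf2r copy, 8 CpGs over 143 bp had levels of 35.8 to 37.6%, an SD of 0.694 points against 4.30 from counting. In Nnat, which encodes neuronatin and is expressed from the paternal copy, 13 CpGs spanned 41.3 to 46.3%, an SD of 1.43 against 4.95. The 11 CpGs shared by the windows of Sgce and Peg10, a neighbouring pair of paternally expressed genes, spanned 38 to 41.3%.

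Even levels were not always concordant from one CpG to the next. A neighbour ratio was computed in the restricted libraries, as the typical difference between successive CpGs of a library over the difference that counting error alone would give. It is near 1 when CpGs of equal level are read independently and near 0 when the CpGs of each read are either all methylated or all unmethylated. The median over the 148 windows was 1.55, and 9 windows lay under 0.5, a limit chosen after the values were seen. Among windows below the intermediate range 49 of 7893 also lay under 0.5, and among those above it 0 of 78. Whether the 49 lie at imprinted loci was not tested. The 9 intermediate windows were Airn (0.135), Nnat (0.154), Sgce and Peg10 (0.256), Plagl1 and Hymai (0.277), Snurf (0.309), Mcts2 (0.452) and Nap1l5 (0.485). Plagl1 and Hymai share their CpGs, as do Sgce and Peg10, so these are 7 stretches. All 9 lie at imprinted loci: 7 were on the imprinted list, while Hymai, the RNA that overlaps Plagl1, and Snurf, the upstream reading frame of the Snrpn transcript, were not and are named here after their values were seen. The next window, Ptchd3, had 0.682.

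**Figure D1:**
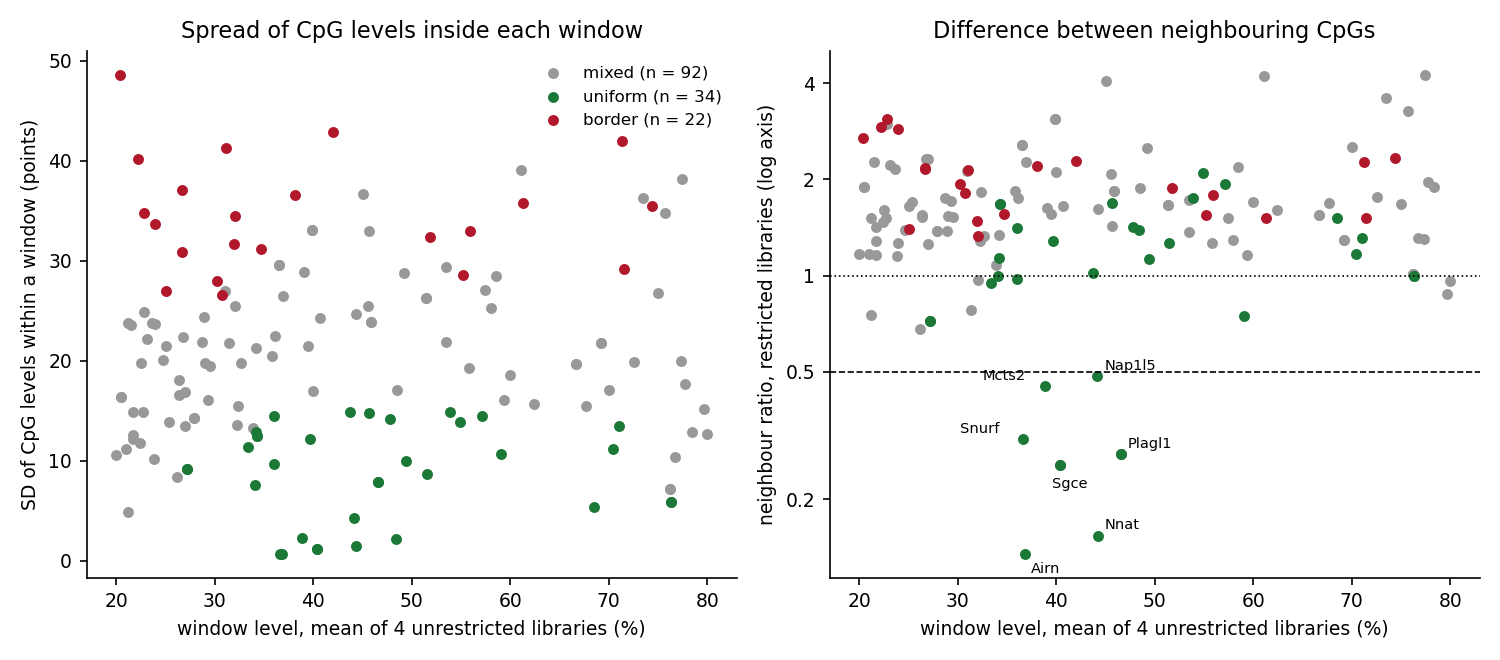
Left, SD of CpG levels within a window against its level, for 148 intermediate windows with at least 6 CpGs; right, the neighbour ratio of the same windows on a log axis, with lines at 1 and 0.5. Uniform windows lie low in the left panel because of the SD limit that defines them. In the right panel they are spread from 0.135 to 2.09, with a median of 1.01. The 7 labelled stretches, all at imprinted loci, fall under 0.5.

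A single CpG set 2 other imprinted windows apart from this group. In Zrsr1, a paternally expressed splicing factor gene, the ratio was 1.28 with all 12 CpGs. It was 0.275 without the CpG in CCGG, which had no methylated read in any library. Gm30189 is an lncRNA that lies inside Gnas, the imprinted gene of the stimulatory G protein subunit. Its ratio was 1.39 with all 8 CpGs and 0.239 with 7. The CpG left out, at chr2:174327896, had 12 to 35 reads and levels of 0, 96.9, 42.1 and 34.3% in unrestricted libraries 1 to 4, while the other CpGs lay from 44.2 to 53.4% in these libraries. Both CpGs were picked after their values were seen. Hormad2, a meiotic chromosome protein and the one intermediate germline gene, was uniform with 9 CpGs, but its levels ran from 23.2 to 65.7% and its ratio was 1.02. Polrmt, the mitochondrial RNA polymerase, had a ratio of 0.976, and Arl9, a small GTPase gene, 0.748.

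The hexamer TGCCGC, which the zinc finger protein ZFP57 binds when it is methylated to keep imprints, was looked for in these promoters. TGCCGC, or GCGGCA on the other strand, was the only motif searched. It was found in 6 of the 7 promoters of intermediate windows under a ratio of 0.5 (those of Nnat, Plagl1, Hymai, Nap1l5, Mcts2 and Snurf) and not in that of Airn. Plagl1 and Hymai overlap and share 1 match. The share was 12.1% of 190 intermediate windows, 21.8% of low windows and 11.6% of all 31396 autosomal promoters of 300 bases. These shares were not tested. The matches are letters in a window and not sites of binding, and promoters of Sgce and Peg10 were not analysed here. The median ratio of observed to expected CpGs was 0.696 in these 7 promoters, against 0.380 for all intermediate ones.

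Several of these genes are nested in a host gene, and the host windows ranged from unmethylated to intermediate where they were measured. Nnat lies within Blcap, whose window had 0 to 0.126% over 32 CpGs in the 8 libraries. Nap1l5, a nucleosome assembly protein gene, lies within Herc3, whose window had 0 to 0.153% over 12 CpGs. Mcts2 lies within H13 and Zrsr1 within Commd1, and the windows of these hosts were not measured. Gm30189 lies within Gnas, whose window of 4 CpGs was at 32.9% in the unrestricted and 25.7% in the restricted libraries, and ran from 0 to 51.2%. On the imprinted list 21 windows were below 20%, among them Ube3a and Copg2 at 0% and Grb10 at 0.395 ± 0.244% (SD, n = 4) in the unrestricted libraries. Zdbf2 was at 95.4 ± 0.533%. H19, the maternally expressed lncRNA, was intermediate at 70.5 ± 3.27% but over 3 CpGs within 9 bp.

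Border windows have a low side and a high side by definition, and the split recurred in the libraries that did not define it. The median step was 63.1 points in the unrestricted and 65.6 points in the restricted libraries, and its direction was the same in all 22. The side nearer the gene was the lower one in 17 windows. In Trrap, a scaffold protein of histone acetyltransferase complexes, 4 CpGs at -620 to -570 bp from the gene start, outside the gene, averaged 96.4% and 14 CpGs inside averaged 0%. In the restricted libraries these sides had 95.8 and 0.145%. In Rap1gap, a GTPase-activating protein gene, the sides had 66.1 and 0.378%. Fam174c had 89.0 and 4.44%, Layn 93.9 and 0%, and Slc16a3, the lactate transporter MCT4, 79.2 and 14.1%. In Bnipl the step was smaller, with 88.7% on the outer and 34.7% on the inner side.

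Much of this steepness spans DNA that was not read. The CpGs beside the split were a median of 442 bp apart, and in 11 of 22 windows more than 500 bp apart, because reads come from separate restriction fragments. In 9 windows they were less than 100 bp apart. Gmpr, guanosine monophosphate reductase, had a graded level, with 91.6, 59.7, 40.6, 11.9, 16.2 and 0% over 6 CpGs in 207 bp. The restricted libraries gave 88.5, 55.8, 32.6, 13.1, 11.6 and 1.56%. In Trpt1, a tRNA phosphotransferase gene with 22 CpGs, 10 outer CpGs averaged 64.1% and 12 inner ones 4.00%, but single CpGs did not fall steadily. Tmem267 ran the other way, with 9.11% on its outer and 83.0% on its inner side, and its CpGs beside the split were 9 bp apart. The outer of these CpGs, at 280 bp inside the gene (0.379% in the unrestricted libraries), stood alone. The next measured CpG outward was at 66 bp, so the gap of 9 bp rests on 1 CpG.

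**Figure D2:**
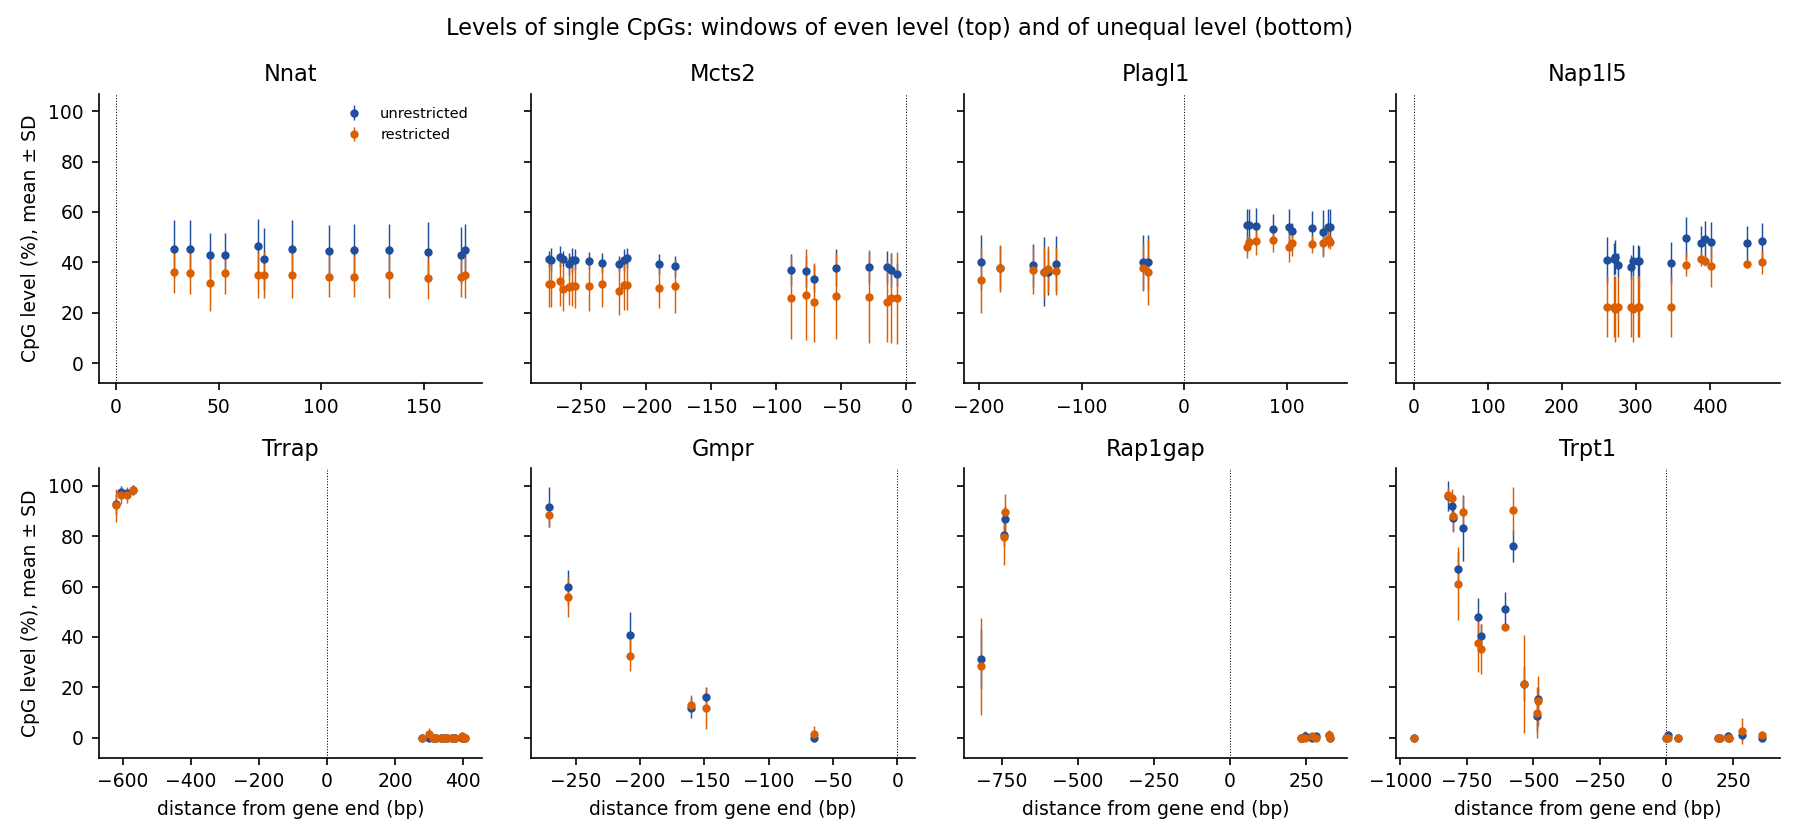
Level of each CpG (mean ± SD of 4 libraries per group, in %) against its distance from the gene end in bp, negative outside the gene, in 4 uniform windows (top) and 4 border windows (bottom). In the top row levels stay between 33.5 and 54.9% in the unrestricted libraries, and in the bottom row they run from near 100% to 0%.

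Restricted libraries had lower levels than unrestricted ones in 5 of the 382 intermediate windows at an adjusted p under 0.05 (1.31%), and higher levels in none. Over all 10937 windows with both methylated and unmethylated reads, 0.0823% were called, 0.0731% lower and 0.00914% higher. The SD between restricted libraries had a median of 4.90 points here, where counting alone gives 4.53, against 0.0954 (counting 0.105) in windows below 20% and 2.61 (counting 2.88) in those from 80%. At an unadjusted p under 0.05 the count was 62 (16.2%), against 6.85% of all windows. The test was a logistic regression on read counts with a dispersion moderated over all windows and Benjamini-Hochberg adjustment. With a term for each CpG, so that an uneven spread of reads over CpGs does not enter, 3 windows were called (Gm30189, Gm53063 and Vamp9), and these were all the calls among the 10937 (0.0274%).

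Gm30189 had the largest called difference. Its window, chr2:174326888-174328387, stood at 44.9, 55.3, 48.6 and 45.1% in unrestricted libraries 1 to 4 and at 32.6, 23.8, 30.6 and 29.4% in restricted libraries 1 to 4. The groups did not overlap, and the means were 48.4 ± 4.87 and 29.1 ± 3.80% (SD, n = 4), a difference of -19.4 points with an adjusted p of 0.00243. Without the discordant CpG the means were 49.0 ± 2.37 and 27.8 ± 3.05%. The window of Gnas itself, 4 CpGs at its own start, was highly variable, from 15 to 51.2% in the unrestricted and 0 to 46.3% in the restricted libraries (adjusted p = 0.680). The value of 0 in restricted library 2 came from 12 to 19 reads per CpG and allows up to 15.8%.

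Vamp9, a gene of the vesicle-associated membrane protein family, fell in all 4 restricted libraries below all unrestricted ones. Its window at chr5:99905242-99906741 had 41.0, 24.4, 35.1 and 33.1% in the unrestricted libraries and 14.2, 18.7, 18.7 and 14.9% in the restricted ones (adjusted p = 0.00838). The means of the 11 CpGs inside the gene ran from 19.7 to 32.8% in the unrestricted group and from 5.58 to 9.67% in the restricted group, and those of the 2 outside were 61.8 and 48.9% against 51.2 and 32.0%. The lncRNA Gm53063, at chr13:59073215-59074714, had 28.3, 35.1, 26.0 and 28.7% against 19.2, 12.1, 15.1 and 12.1% (adjusted p = 0.00461). It was not a uniform window: its 7 CpGs over 53 bp climbed from 6.51 to 64.6% in the unrestricted group and from 6.72 to 41.9% in the restricted group.

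Yif1b and Nap1l5 were called on pooled reads only. Yif1b, a membrane trafficking gene, had 62.8, 61.7, 59.4 and 61.4% in the unrestricted and 48.0, 49.8, 53.0 and 55.1% in the restricted libraries (adjusted p = 0.0101). It is a border window, with 89.9% on its inner and 22.6% on its outer side, and the plain means over its CpGs were 58.5 and 54.9%. Its adjusted p was 0.769 with a term for each CpG. The difference was -0.917 points in a window of 500 bp on either side of the gene end (adjusted p = 0.838) and -6.97 with a minimum of 5 reads (adjusted p = 0.188). Nap1l5 had 49.4, 45.8, 38 and 43.4% against 27.6, 28.2, 41.3 and 23.4% (adjusted p = 0.0330), so restricted library 3 lay among the unrestricted ones. Its 6 CpGs from 368 to 471 bp inside the gene had restricted means of 38.4 to 41.2%, while the 9 from 261 to 348 bp had 21.5 to 22.3%. The plain means over the Nap1l5 CpGs were 43.5% unrestricted and 29.2% restricted. With a term for each CpG the adjusted p of Nap1l5 was 0.132.

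The 5 differences were not called by edgeR's quasi-likelihood test, with a lowest adjusted p of 0.0656 (Vamp9), or in the fits with a term for library depth or for the set of libraries. The edgeR test called 12 of all 10937 windows, and 0 of these were intermediate. In each of these fits the size was taken as the difference of group means on pooled reads, so it is the same by construction. No size adjusted for library depth or set was computed. How many changes of this size the fits with a depth or set term would call was not tested. Leaving out 1 library gave 3 to 17 called intermediate windows, 17 without restricted library 3, 3 without restricted library 1 and 8 without unrestricted library 2 or 3. Shares over all windows are not given for these 8 fits, so the counts are not a result about intermediate windows. Gm30189, Gm53063 and Vamp9 were called in each of the 8 fits.

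All 10 imprinted windows, which are 9 stretches since Sgce and Peg10 share their CpGs, had lower means in the restricted libraries, and 1 of the 10, Nap1l5, passed the test. Their differences ran from -15.4 points in Sgce and Peg10 to -2.86 in Plagl1, with a median of -9.71, against -1.32 over the 382 windows. Mcts2 had 38.2, 41.4, 34.4 and 41.7% against 19.4, 27.8, 33.5 and 34.6% (adjusted p = 0.0849). It was called with a minimum of 20 reads (adjusted p = 0.00500) and without restricted library 3 (adjusted p = 0.00267) or 4 (adjusted p = 0.00644). Zrsr1 had 41.0, 42.5, 33.5 and 41.7% against 34.2, 31.5, 29.4 and 31.3% (adjusted p = 0.123). In both windows 1 restricted library lay above unrestricted library 3, by less than 1 point, and the groups were otherwise apart. Sgce and Peg10 had 46.8, 55.2, 28.5 and 31.0% against 19.6, 14.8, 35.4 and 30.1% (adjusted p = 0.392). Airn had 56.0, 38.7, 35.2 and 17.4% against 36.0, 0, 42.7 and 29.4% (adjusted p = 0.776). The 0 rests on 10 reads per CpG, which allows up to 30.0%.

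**Figure D3:**
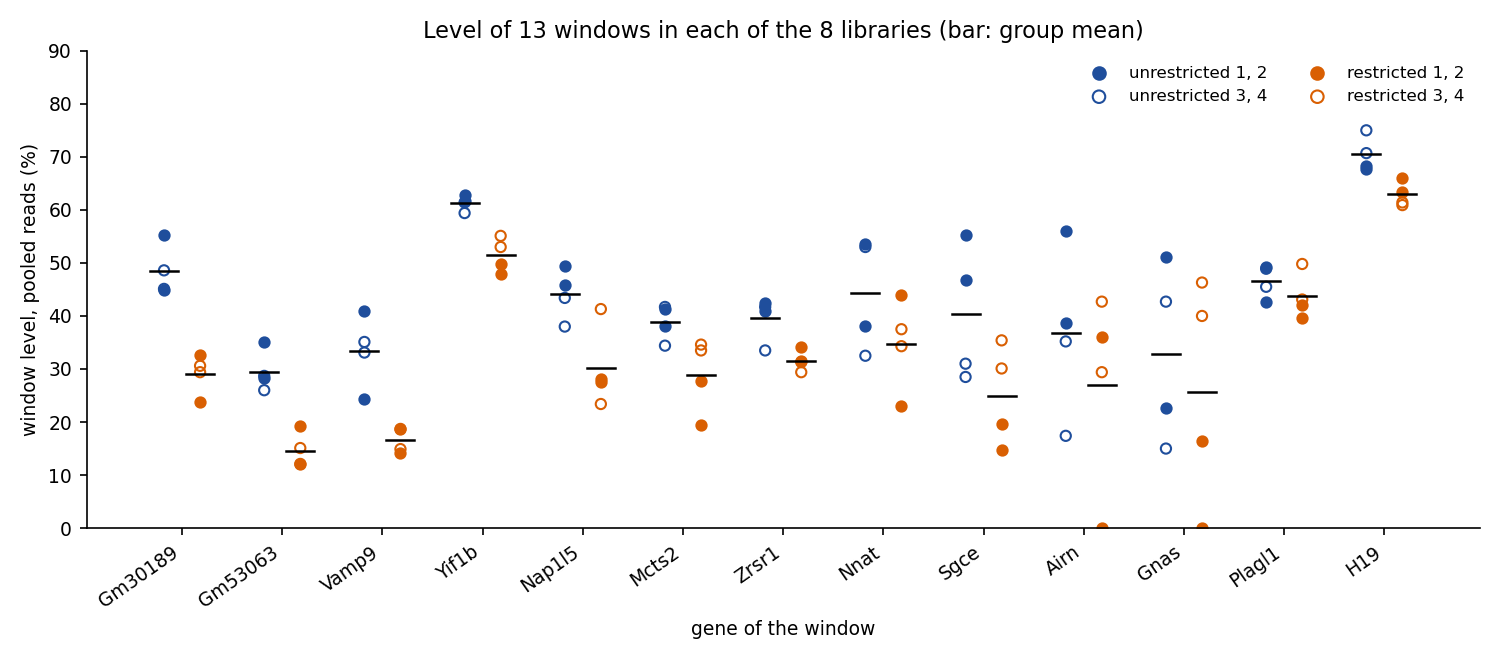
Window level (pooled reads, in %) of 13 genes in each of the 8 libraries, unrestricted in blue and restricted in orange, filled for libraries 1 and 2, open for 3 and 4, with a bar at the group mean. The groups are apart in Gm30189, Gm53063, Vamp9, Yif1b and H19, and overlap or touch in the others.

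The imprinted differences all ran downward among the libraries numbered 1 and 2 and both ways among those numbered 3 and 4. Within libraries 1 and 2 the 10 windows averaged 47.5% unrestricted and 28.4% restricted, a difference of -19.1 points, and all 10 were lower. Within libraries 3 and 4 they averaged 39.4 and 38.5%, a difference of -0.888 points, and 6 of 10 were lower. Sgce and Peg10 differed by -33.8 points in the first set and by 3.02 in the second, Airn by -29.4 and 9.73, and Gnas by -28.6 and 14.3. Nap1l5 (-19.7 and -8.42), Mcts2 (-16.2 and -4.02) and Nnat (-12.4 and -6.81) were lower in both sets, and H19 was lower by more in the second set, with -3.34 and -11.7. The 3 windows called with a term for each CpG had like differences in both sets: -21.9 and -16.8 points in Gm30189, -16.0 and -13.8 in Gm53063, and -16.2 and -17.3 in Vamp9. Zrsr1 was alike too, with -8.94 and -7.24. Yif1b, called on pooled reads only, had -13.3 and -6.36. Each set has 2 libraries per group, and the difference between sets was not tested. Against all 4 unrestricted libraries, restricted libraries 3 and 4 alone were lower in 9 of the 10 imprinted windows, with a median difference of -7.61 points, and Gnas was higher. This comparison mixes the sets, since unrestricted libraries 1 and 2 averaged 47.5% and unrestricted libraries 3 and 4 averaged 39.4%. It does not separate diet from the set, and within libraries 3 and 4 the mean difference was -0.888 points.

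**Figure D4:**
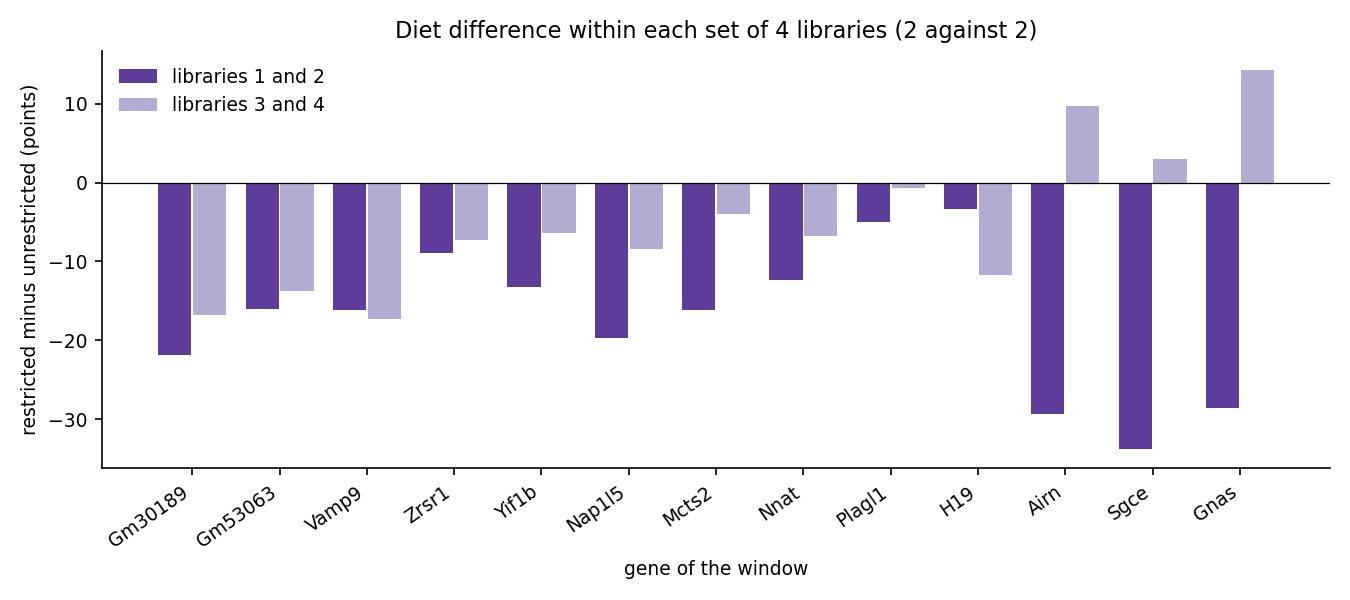
Restricted minus unrestricted level (percentage points) of 13 windows, in the libraries numbered 1 and 2 (dark) and in those numbered 3 and 4 (light). Gm30189, Gm53063, Vamp9 and Zrsr1 were lower by similar amounts in both sets, and Airn, Sgce and Gnas changed sign.

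Even CpGs of 1 window could disagree within a library. In restricted library 2, with 20 to 25 reads per CpG, the Mcts2 CpGs from 244 to 178 bases before the start had 38.1 to 42.9%, while the 8 CpGs from 89 bases before the start onward had 8.00% each. In restricted library 3 the same stretches had 21.9 to 25.0% and 44.2 to 46.5%. The CpGs of each stretch had the same read counts and nearly the same levels, so the number of reads behind a stretch, and not the number of CpGs, sets its precision. PCR copies of a molecule cannot be told apart in these data, and counting errors are therefore lower limits.

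Averaged over all 382 windows, restricted libraries stood at 45.8 ± 1.43% and unrestricted ones at 47.4 ± 1.09% (SD, n = 4 libraries each), a difference of -1.63 points. Of the windows 238 (62.3%) were lower in the restricted group, against 52.3% of all tested windows. Choosing windows by the restricted libraries instead gave 367, of which 341 were in both choices, and 60.8% of them were lower. Within libraries 1 and 2 the mean difference was -3.32 points and within libraries 3 and 4 it was 0.0501. The groups were apart with the restricted one lower in 17 windows (4.45%, against 0.942% of all windows) and higher in 8 (2.09%, against 0.640%). Among the 8 were Mgmt, which repairs alkylated DNA (61.1 and 67.7%), and Itgal, an integrin gene (69.5 and 77.2%), named after their values were seen; their adjusted p were 0.501 and 0.680.

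Pooled reads and the plain mean over CpGs can differ only where CpGs have unequal levels, so they agree in uniform windows by construction. Uniform windows differed by -4.37 points on pooled reads and by -4.45 on the plain mean over CpGs. Border windows differed by -3.72 points on pooled reads and by -1.17 on the plain mean. In Rnf208, a ring finger gene chosen after its values were seen, the pooled level went from 34.7 to 19.8%, and the plain mean from 20.3 to 18%. In Sptbn4, a spectrin gene chosen likewise, these were 23.9 to 16.8% and 17.3 to 16.6%. Within libraries 3 and 4 the pooled differences were 0.832 points for uniform and -1.07 for border windows. The level inside minus the level outside the gene, split at the gene end and not at the border, could be tested in 33 intermediate windows (13 border, 16 mixed and 4 uniform), with 0 calls by limma (0% of 4346 windows), a lowest adjusted p of 0.855, and 4 windows at an unadjusted p under 0.05 (12.1%, against 3.29%).

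**Figure D5:**
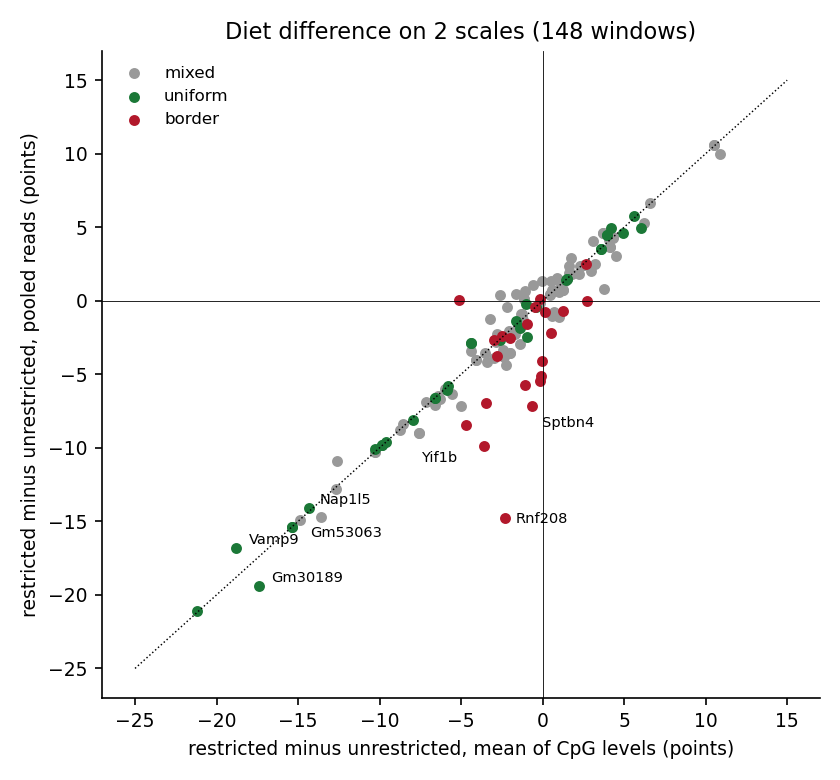
Restricted minus unrestricted difference on pooled reads against the same difference on the plain mean over CpGs (percentage points) for 148 windows, by shape, with a dotted line of equality. Uniform windows lie near the line and several border windows, such as Rnf208, Sptbn4 and Yif1b, lie under it.

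At single CpGs 1 of 2087 tested in these windows was called (0.0479%, against 0.101% of 191637 CpGs, 0.0266% lower and 0.0746% higher). It lay at chr9:22188476 in the window of Zfp872, a zinc finger gene, with 24.4, 42.9, 15 and 27.7% in the unrestricted and 0, 9.52, 12 and 9.52% in the restricted libraries (adjusted p = 0.0161). The whole Zfp872 window, 4 CpGs, had means of 27.7 and 12.6% (adjusted p = 0.0987), and was called with a minimum of 20 reads (-18.8 points, adjusted p = 0.0127) and without unrestricted library 3 (adjusted p = 0.0179) or restricted library 3 (adjusted p = 0.0266). Its differences were -26.9 points within libraries 1 and 2 and -3.29 within libraries 3 and 4. Leaving out 1 library gave another number of called CpGs in each of the 8 fits, from 0 without unrestricted library 4 to 14 without unrestricted library 2.

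No other window of the intermediate gene families was called in the full fit, with Zfp872 called in some alternatives. The protocadherins Pcdha5, Pcdha8 and Pcdhga8, cell adhesion proteins chosen singly by neurons, had unrestricted levels of 35.9, 44.3 and 32.3%, and differences of -0.250, 2.00 and -0.766 points. The olfactory receptors Olfr1342, Olfr658 and Olfr286 stood at 50.6, 44.1 and 73.4%. Zfp970, Zfp872 and Zfp119b stood at 26.7, 27.7 and 27.1%. Hormad2 had 40.6, 46.1, 45.9 and 42.2% against 38.8, 39.6, 33.6 and 38.5%, groups that did not overlap (adjusted p = 0.482).

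The windows named for the largest dispersion between libraries of 1 group are a description, since they were picked for it and since the reads of a stretch are shared by its CpGs. Polrmt, at the end of the gene, had 35.1, 15.8, 54.6 and 27.8% in the restricted libraries but 33.0 to 40.1% in the unrestricted ones. Mapk1ip1l had 7.88 to 35.6% in the restricted and 26.3 to 28.9% in the unrestricted libraries. Cdc42ep5, a Cdc42 effector gene, had 8.12 to 31.9% and 9.22 to 28.2%, over 16 CpGs with as few as 10 reads each. Arl9 had the largest mean difference of the named windows, from 59.1 ± 7.87 to 38 ± 15%, and did not pass the test (adjusted p = 0.234).

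The limits of the range cut through a continuum. Lsm7 (19.9%) and Hes3 (20.0%, just under the limit before rounding) fell outside it, and Cdc42ep5 (20.0%) and Gm15283 (20.2%) inside. At the upper limit 2900057B20Rik (79.9%) and Angptl6 (under 80% before rounding) were inside, and Gm40106 and Gm12474, which share their CpGs, at 80.4% outside. The range from 20 to 30% held 90 of the 382 windows, and that from 60 to 70% held 44.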

How the data were processed

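The deposited files hold, for each cytosine of a CpG, a count of covering reads and the percent of reads called methylated and unmethylated, per the layout of the files. Bismark 0.13.1, methylKit, cutadapt, Trim Galore 0.3.3 and FastQC are listed without roles, with build mm10, in the submitters' processing notes. The product of coverage and percent, rounded to whole reads, gave the methylated reads, and both strands of a CpG were added. Genes came from a RefSeq table of GRCm38.p6, the coordinates of mm10, with strands from the RefSeq promoter table, and 9350 genes with equal CpG numbers at both ends were left out. The level of a window is its methylated reads over all its reads, pooled over CpGs. Read counts were fitted by logistic regression in Python 3.11.15, with a Pearson dispersion moderated as in limma and not under 1. It was called at a Benjamini-Hochberg adjusted p under 0.05. Windows with only methylated or only unmethylated reads were not tested. limma 3.58.1 and edgeR 4.0.16 were used for alternatives. The main fit, the fit with a term for each CpG and limma on M-values were tested on simulated data. Of changes of 10 points in 200 intermediate windows the main fit called 22.0%, and 6 of its 50 calls were false. Of changes of 20 points it called 85.0%, and 7 of its 177 calls were false. M-values used a pseudocount of 1.

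Named are called, imprinted and germline windows, and, among windows of at least 10 CpGs and passing over Gm and Rik gene models, the 8 uniform ones of smallest SD, the 8 border ones of largest step and the 5 of largest dispersion, with the 3 of smallest diet p in each other list and the windows next to each limit. Gmpr, Layn, Rnf208, Sptbn4, Snurf, Hymai, Ptchd3, Mgmt and Itgal lie outside this rule and were chosen after their values were seen. Members of the range, lists and limits were chosen with earlier results of these data known. Same-numbered libraries had deviations correlated at 0.0488, -0.255, -0.168 and 0.0340, so the numbers were not taken as pairs.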

Additional observations from a re-analysis of the deposited data

Results flagged for a closer look

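In 3 of 74 groups of 4 libraries looked at among the named windows, 1 library stood apart from the other 3 by more than Dixon's limit allows at 95%, and chance flags about 1 group in 20. Restricted library 3 had 33.6% in Hormad2, against 38.5 to 39.6% in the other 3 restricted libraries. Unrestricted library 3 had 33.5% in Zrsr1, against 41.0 to 42.5%. Unrestricted library 1 had 29.9% in Trpt1, against 40.1 to 41.3%.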

How the results depend on the processing

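The 382 windows became 858 with a minimum of 5 reads, 93 with 20 reads, 194 with at least 5 CpGs and 225 between 30 and 70%. Uniform and border windows numbered 18 and 13 with an SD limit of 10 and a step of 60 points, 10 and 1 with 20 reads, and 15 and 11 with at least 10 CpGs, and border windows numbered 47 with a step of 40. The 5 called windows became 3 with a term for each CpG, 4 with a minimum of 20 reads (Mcts2, Gm30189, Nap1l5 and Zfp872, while Gm53063, Vamp9 and Yif1b were no longer in the set), 2 without restricted libraries 1 and 2, 3 to 17 when 1 library was left out, and 0 in 6 fits. At an unadjusted p under 0.05 these gave 17 with limma on M-values, 25 with edgeR's quasi-likelihood test, 53 with limma on plain means, 26 with a term for library depth, and 45 with a term for the set of libraries, an alternative added after the data were seen. No share over all windows was computed beside these unadjusted counts. None is given here beside the called counts of windows or CpGs, so those counts are not a result about intermediate windows. The 0 of limma on M-values says nothing of stability, since that test made no calls at changes of such sizes in simulated data. A replicate block, although the numbers do not pair the libraries, left 0 called windows (23 unadjusted) and 0 called CpGs (43 unadjusted). The 1 called CpG became 0 with limma on M-values (179 unadjusted), 8 without restricted libraries 1 and 2, and 0 to 14 when 1 library was left out. The mean difference over the windows ran from -2.19 to -0.601 in these alternatives, and was 0.0501 within libraries 3 and 4.

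Signs changed in windows that were not called. On plain means over CpGs, which also served as the size for the fit with a term for each CpG, the difference was 2.74 points in Bnipl, 0.163 in Slc16a3 and 0.671 in Pcdhga8. With 20 reads it was 0.264 in Tmem267 and 1.68 in Pcdhga8, and with 5 reads 2.81 in Pcdha5. With 500 bp on either side it was 1.12 in Bnipl, 0.146 in Trrap, 0.433 in Fam174c and 0.00435 in Trpt1. Without restricted libraries 1 and 2 it was 10.3 in Gnas, 4.78 in Zfp970, 4.64 in Bnipl, 5.21 in Polrmt, 2.90 in Slc16a3, 1.86 in Pcdha5 and 0.615 in Trpt1. Leaving out 1 library gave -0.199 to 3.07 in Angptl6, -3.13 to 2.67 in Bnipl, -1.23 to 7.12 in Cdc42ep5, -14.0 to 1.38 in Gnas, -1.15 to 4.89 in Olfr286, -3.00 to 2.45 in Pcdha5, -1.27 to 4.79 in Pcdha8, -2.92 to 0.384 in Pcdhga8, -9.73 to 3.20 in Polrmt, -2.87 to 2.54 in Slc16a3, -3.89 to 0.312 in Tmem267 and -6.40 to 0.458 in Zfp970. The cause was not tested. With a median of 135 CpG reads per window and library, and reads shared between neighbouring CpGs, differences of a few points in 1 window were not detectable at this depth.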
